A study of Rattus norvegicus with 12 samples.

Results

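Protein kinase C (PKC) and protein kinase D (PKD) isozymes are serine/threonine kinases, most of which answer to diacylglycerol, the lipid that phospholipase C releases in the membrane when Gq-coupled receptors are engaged. The 10 genes described here were taken by name as conventional PKC (cPKC, Prkca and Prkcb), the nPKC class (Prkcd, Prkce, Prkch, and Prkcq), atypical PKC (aPKC, Prkci and Prkcz), and PKD (Prkd1 and Prkd2). They are 10 of 17301 gene names and account for 11 of the 18752 transcripts listed, because Prkcb has 2 transcripts and each of the other 9 genes has 1.

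Expression was measured by RNA sequencing of adult rat ventricular myocytes (ARVMs), heart muscle cells isolated from the ventricles of Sprague Dawley rats and kept in serum-free medium with 2,3-butanedione monoxime, which blocks contraction. One group of 6 samples was transduced with Ad-h-NR4A2, an adenovirus that carries human NR4A2, an orphan nuclear receptor, behind the cytomegalovirus promoter. The control group of 6 samples was transduced with Ad-GFP, an adenovirus that encodes enhanced green fluorescent protein. Both viruses were used at 50 MOI, and RNA was taken after 48 h, so that all 12 samples are of virus-bearing cultured cells and no untransduced sample was part of the comparison. The samples of each group bear the numbers 24 to 29. Same-numbered samples are described as pairs and enter a further fit blocked by sample number (the replicate block). The main fit and the exact permutation test compare the groups without the pairing. Animal age was not given in the labels used here.

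A cPKC needs calcium as well as diacylglycerol, an nPKC needs diacylglycerol only, and an aPKC needs neither and is steered by scaffold proteins. PKDs lie downstream, since they bind diacylglycerol and are switched on by nPKC, and in heart muscle they phosphorylate class II histone deacetylases. In the ventricle, PKC-α is known as a brake on contractility, PKC-ε for its place in ischemic preconditioning, and PKC-δ for its part in cell death during reperfusion.

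The sequence upstream of 4 genes is shown because these are the members that passed the test for a change, 1 upward (Prkca) and 3 downward (Prkcd, Prkce, and Prkcq). Each run is the 250 bases before the RefSeq start of the gene, written 5′ to 3′ on the strand of the gene, from assembly GRCr8. Capitals mark GGGCGG, the core of the GC box, and AGGTCA, the half-site of nuclear receptors, each read on either strand, so that CCGCCC and TGACCT are also in capitals. The runs lie at chr10:93787328-93787577 for Prkca, chr16:5805840-5806089 for Prkcd, chr6:14204289-14204538 for Prkce, and chr17:72288509-72288758 for Prkcq, all on the minus strand.
Prkca: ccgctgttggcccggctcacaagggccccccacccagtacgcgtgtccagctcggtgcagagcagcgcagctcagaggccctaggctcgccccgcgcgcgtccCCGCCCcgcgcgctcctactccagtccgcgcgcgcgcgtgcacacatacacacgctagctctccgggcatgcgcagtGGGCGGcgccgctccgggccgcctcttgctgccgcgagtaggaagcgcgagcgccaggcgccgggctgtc
Prkcd: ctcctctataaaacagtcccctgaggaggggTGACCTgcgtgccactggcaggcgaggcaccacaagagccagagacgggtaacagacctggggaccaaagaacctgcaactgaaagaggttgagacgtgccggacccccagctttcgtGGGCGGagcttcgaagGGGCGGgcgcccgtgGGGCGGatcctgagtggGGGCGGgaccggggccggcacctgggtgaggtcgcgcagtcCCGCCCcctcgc
Prkce: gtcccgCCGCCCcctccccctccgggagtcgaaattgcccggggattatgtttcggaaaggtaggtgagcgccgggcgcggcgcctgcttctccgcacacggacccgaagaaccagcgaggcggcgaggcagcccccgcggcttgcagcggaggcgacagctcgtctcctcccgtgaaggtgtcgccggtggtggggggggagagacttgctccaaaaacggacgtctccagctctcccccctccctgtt
Prkcq: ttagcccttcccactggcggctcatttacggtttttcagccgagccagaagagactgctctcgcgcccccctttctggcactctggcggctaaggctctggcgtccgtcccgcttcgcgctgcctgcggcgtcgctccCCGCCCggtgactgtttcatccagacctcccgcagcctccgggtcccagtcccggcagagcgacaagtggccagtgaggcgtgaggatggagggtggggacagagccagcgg

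A promoter of this length was matched for 8 of the 10 genes, not for Prkcb or Prkch. AAAGGTCA, the element bound by NR4A receptors as monomers, which contains AGGTCA, was found in 0 of the 8 and in 1.24% of all 33469 promoters. AGGTCA was found in 1 of the 8, that of Prkcd, where it starts 219 bases before the gene, and in 14.1% of all promoters. GGGCGG was found in 8 of 8 and in 30.5% of all promoters. GC content was 74.8% for Prkca, 67.6% for Prkcd, 68.8% for Prkce, and 66.8% for Prkcq, against a median of 51.2% over all promoters. These are matches of letters in 1 window and not measured binding.

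Of the 10 genes, 9 were listed above 0 in all samples and could be tested with the other genes, 10950 in all. A change was called at a Benjamini-Hochberg adjusted p below 0.05 from limma on log2(FPKM + 0.1) together with group mean FPKM that differed at least 1.5-fold. FPKM counts the fragments on a transcript relative to its length and to the mapped fragments of the sample. Comparisons between genes on this scale hold only as far as the listed transcript lengths do. By this rule 4 members changed, with Prkca higher in Ad-h-NR4A2 samples and Prkcd, Prkce, and Prkcq lower, whereas 15.2% of all genes tested changed, 7.94% upward and 7.24% downward. The median log2 fold change was -0.26 over the 9 members tested and -0.02 over all genes tested. In 4 of the 9, Prkca, Prkce, Prkcq, and Prkci, the values of the groups did not overlap, as in 21.5% of all genes tested. FPKM cannot tell fewer cells from less RNA per cell in such bulk samples.

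**Figure D1:**
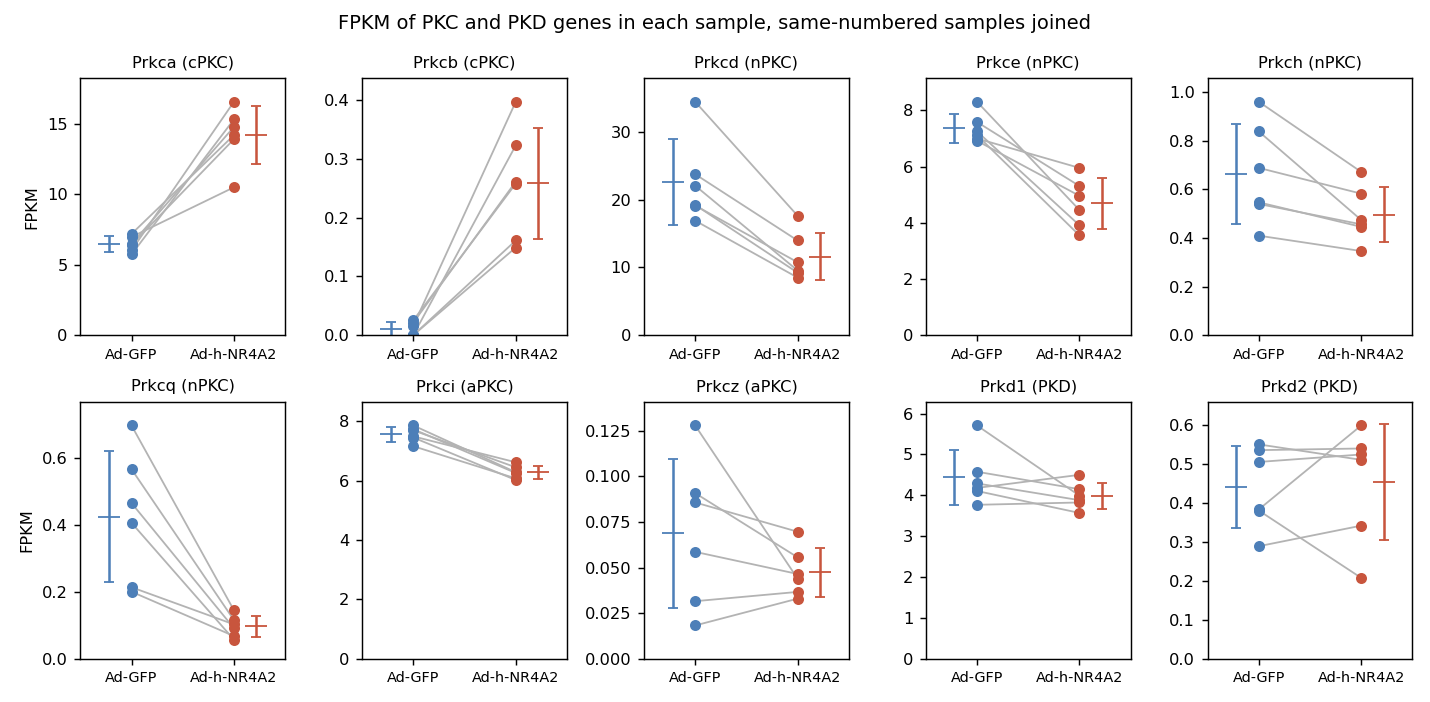
FPKM (vertical axes, each from 0) of each of the 10 genes in 6 Ad-GFP samples (blue) and 6 Ad-h-NR4A2 samples (red), with gray lines joining same-numbered samples and bars giving mean ± SD; the 2 transcripts of Prkcb are summed. The Ad-h-NR4A2 sample is the higher of all 6 pairs for Prkca and Prkcb and the lower of all 6 for Prkcd, Prkce, Prkch, Prkcq, and Prkci, while pairs go both ways for Prkcz, Prkd1, and Prkd2.

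The labels were checked with Nr4a2, which had a mean of 0.884 FPKM in Ad-GFP samples and 524 FPKM in Ad-h-NR4A2 samples. The transgene is human, and its fragments were not told apart from those of the rat gene. The depth implied by the steps in low FPKM was 18800000 to 28000000 fragments per sample, and fragment numbers below come from it. Summed FPKM of 7 cardiomyocyte markers was 18680 to 23930 in Ad-GFP samples and 16250 to 19920 in Ad-h-NR4A2 samples, with 3 of 7 called lower (Myh7, Mybpc3, and Ryr2). Summed FPKM of 9 fibroblast markers was 9.29 to 30.8 and 5.88 to 27.4, with 1 of 8 tested called lower and Col1a2 listed at 0 in all samples. The sums were 9.96 to 31.8 and 11.3 to 33.6 for 8 endothelial markers (1 of 8 tested called higher), 16.7 to 27.6 and 11.2 to 23.5 for 7 markers of smooth muscle and pericytes (2 of 6 called lower), and 2.60 to 4.27 and 1.79 to 6.25 for 8 markers of neurons and Schwann cells (1 of 3 called higher and 1 lower).

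Of the cPKC genes, both were higher in all 6 Ad-h-NR4A2 samples. Prkca, which encodes PKC-α, the main conventional isozyme of the ventricular myocyte, lies at chr10:95919013-96311328 in Rn5. Its FPKM ranged from 5.74 to 7.19 (median 6.45) in Ad-GFP samples and from 10.5 to 16.6 (median 14.5) in Ad-h-NR4A2 samples. Every Ad-h-NR4A2 sample lay above every Ad-GFP sample, and the sample nearest to the control range was Ad-h-NR4A2 29. The group means were 6.47 ± 0.551 and 14.2 ± 2.05 FPKM (SD, n = 6 each), so that the gene rose 2.20-fold. The log2 fold change of FPKM + 0.1 was 1.12 (SE 0.10, limma, Benjamini-Hochberg adjusted p = 1.38e-06), and the two-sided exact permutation test gave p = 0.00216, the smallest that 6 samples against 6 allow. These values rest on 462 to 680 fragments in Ad-GFP samples and 840 to 1378 in Ad-h-NR4A2 samples. Within pairs, the ratio was 1.51 to 2.75.

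Prkcb, which encodes the splice forms of PKC-β and is best known from B cells and other leukocytes, lies at chr1:199295067-199639139 in Rn5. It was near the limit of detection in Ad-GFP samples, with 0, 1, 0, 1, 0, and 2 fragments in samples 24 to 29. In the Ad-h-NR4A2 samples the numbers were 8, 18, 10, 22, 21, and 15 fragments. The groups did not overlap, and 3 of the Ad-GFP samples were listed at 0, so that the gene was not among those tested. Summed over both transcripts, the mean was 0.0104 FPKM in the control and 0.258 ± 0.0947 FPKM (SD, n = 6) with Ad-h-NR4A2 (two-sided exact permutation test, p = 0.00216). In all, 4 fragments in 6 samples stood against 94 in 6 samples, which at the depth of the groups is a ratio of 23.5 with an exact 95% interval of 8.86 to 87.8 for counting error only. The limma fits took only the transcript of greatest mean FPKM, NM_001172305, on which Ad-GFP 29 was at 2.93e-07 FPKM, and not the summed values. Without the filter on low values, which takes in 14040 genes, its log2 fold change of FPKM + 0.1 was 1.6 (SE 0.15, limma, Benjamini-Hochberg adjusted p = 4.63e-06), and 7.51% of genes were then called higher. That fold change is set largely by the pseudocount, being 0.29 with a pseudocount of 1 and 4.0 with 0.01.

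Most Prkcb fragments were assigned to transcript NM_001172305 and the rest to NM_012713. In Ad-h-NR4A2 samples, NM_001172305 had 0.129 to 0.339 FPKM. The 2 fragments of Ad-GFP 29 were on NM_012713, which had at most 0.0579 FPKM in any sample. Such small numbers give no measure of a shift between the transcripts.

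Markers of cells that are known to use Prkcb were read beside it. Of 4 B cell markers listed, Ms4a1 and Pax5 were at 0 in all samples, and the sum of the list was 0 to 0.131 FPKM in Ad-GFP samples and 0.0827 to 0.219 FPKM in Ad-h-NR4A2 samples. The sum of 10 macrophage and other leukocyte markers was 7.29 to 18.0 FPKM against 37.5 to 50.1 FPKM. In that list 1 of 4 genes tested was called higher, namely Csf1r, the receptor for macrophage colony-stimulating factor, with a mean of 10.1 FPKM in Ad-GFP samples and 40.2 FPKM in Ad-h-NR4A2 samples. Without Csf1r the sum of the other 9 was 0.932 to 5.27 and 0.614 to 6.74 FPKM, and Ptprc, the common leukocyte antigen, averaged 0.0258 and 0.0218 FPKM. The part of these cells in the Prkcb values was not tested.

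Of the 4 nPKC genes, 3 were called lower. Prkcd, which encodes PKC-δ, lies at chr16:6588990-6608725 in Rn5 and was the most abundant member in the control cells. Its FPKM ranged from 16.9 to 34.5 (median 20.7) in Ad-GFP samples and from 8.51 to 17.6 (median 10.2) in Ad-h-NR4A2 samples. The groups overlapped, since number 25 was the highest in each group and Ad-h-NR4A2 25 lay above Ad-GFP 26. The group means were 22.6 ± 6.30 and 11.6 ± 3.53 FPKM (SD, n = 6 each), so that the gene fell to 0.514 of its control level. The log2 fold change was -0.96 (SE 0.19, limma, Benjamini-Hochberg adjusted p = 0.00139), with p = 0.00433 by the two-sided exact permutation test. All 6 pairs fell, with ratios of 0.432 to 0.588. With the replicate block the SE was 0.06 and the adjusted p 1e-06 (limma, Benjamini-Hochberg). The values rest on 936 to 1637 and 522 to 1219 fragments.

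Prkce, which encodes PKC-ε, lies at chr6:9404556-9883579 in Rn5. Its FPKM ranged from 6.92 to 8.31 (median 7.18) in Ad-GFP samples and from 3.55 to 5.95 (median 4.71) in Ad-h-NR4A2 samples, and the groups did not overlap. Prkce thus fell to 0.637 of its control level, with means of 7.36 ± 0.518 and 4.69 ± 0.896 FPKM (SD, n = 6 each). The log2 fold change was -0.66 (SE 0.11, limma, Benjamini-Hochberg adjusted p = 0.00044), and the ratios within pairs were 0.499 to 0.850. The ratio is close to the limit of 1.5, and without Ad-h-NR4A2 29, the lowest sample, the gene no longer met it (log2 fold change -0.58, limma, Benjamini-Hochberg adjusted p = 0.000704).

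Prkcq, which encodes PKC-θ, an isozyme best known from T cells and skeletal muscle, lies at chr17:72669688-72800895 in Rn5. It was scarce in all samples, at 0.200 to 0.696 FPKM (median 0.435) in Ad-GFP samples and 0.0571 to 0.145 FPKM (median 0.0970) in Ad-h-NR4A2 samples. The groups did not overlap, although Ad-GFP 26 and Ad-GFP 29 lay well below the other control samples. Prkcq fell to 0.228 of its control level, with means of 0.425 ± 0.195 and 0.0966 ± 0.0321 FPKM (SD, n = 6 each), on 15 to 61 and 4 to 12 fragments per sample. The log2 fold change of FPKM + 0.1, which understates the change of so low a gene, was -1.34 (SE 0.24, limma, Benjamini-Hochberg adjusted p = 0.000511). All pairs fell, with ratios of 0.141 to 0.481. Of 8 T cell markers, Cd3d, Cd3g, and Cd5 were at 0 in all samples and the sum was 0.0399 to 0.124 FPKM in Ad-GFP samples and 0 to 0.0757 FPKM in Ad-h-NR4A2 samples. The sum of 8 skeletal muscle markers was at most 0.0991 FPKM in any sample, with Tnnt3 and Tnni2 at 0.

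Prkch, which encodes PKC-η, was the nPKC gene not called. Its FPKM was 0.410 to 0.961 (median 0.618) in Ad-GFP samples and 0.346 to 0.672 (median 0.465) in Ad-h-NR4A2 samples, and the groups overlapped broadly. The log2 fold change was -0.34 (95% interval -0.74 to 0.07, limma, Benjamini-Hochberg adjusted p = 0.172), on 24 to 62 fragments per sample. The Ad-h-NR4A2 sample was the lower in all 6 pairs. Blocked by sample number, the fit gave an adjusted p of 0.0209 (limma, Benjamini-Hochberg), a level that 59.4% of all genes tested passed in that fit, but the ratio of means, 0.747, did not reach the limit.

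Of the aPKC genes, 0 were called. Prkci, which encodes PKC-ι, a partner of the Par polarity proteins, was 7.16 to 7.85 FPKM (median 7.59) in Ad-GFP samples and 6.02 to 6.61 FPKM (median 6.27) in Ad-h-NR4A2 samples. All Ad-h-NR4A2 samples lay below all Ad-GFP samples, by a small margin against a small spread. Means were 7.56 ± 0.250 and 6.28 ± 0.224 FPKM (SD, n = 6 each), which is -0.26 as a log2 fold change (SE 0.05, limma, Benjamini-Hochberg adjusted p = 0.00135). It thus passed the limit on the adjusted p, as 40.9% of all genes tested did (21.7% downward), but with a ratio of 0.831 it did not pass the fold limit. Prkcz, which encodes PKC-ζ, had 1 to 6 fragments in Ad-GFP samples and 2 to 4 in Ad-h-NR4A2 samples. Its means were 0.0688 ± 0.0408 and 0.0476 ± 0.0134 FPKM (SD, n = 6 each), and a difference was not detectable at this depth (log2 fold change -0.16, 95% interval -0.52 to 0.19, limma, Benjamini-Hochberg adjusted p = 0.461).

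Neither PKD gene was called. Prkd1, which encodes PKD1, the kinase best known for exporting class II histone deacetylases from the nucleus of cardiomyocytes, was 3.77 to 5.71 FPKM (median 4.24) in Ad-GFP samples and 3.57 to 4.50 FPKM (median 3.94) in Ad-h-NR4A2 samples. The groups overlapped, and Ad-GFP 29 stood above the other samples. The log2 fold change was -0.14 (95% interval -0.35 to 0.07, limma, Benjamini-Hochberg adjusted p = 0.269), on 200 to 415 fragments per sample. Prkd2, which encodes PKD2, was 0.289 to 0.551 FPKM (median 0.445) in Ad-GFP samples and 0.208 to 0.599 FPKM (median 0.518) in Ad-h-NR4A2 samples. Its log2 fold change was 0.01 (95% interval -0.44 to 0.45, limma, Benjamini-Hochberg adjusted p = 0.985), and 4 pairs went up and 2 down. The sign of that value turned with several other settings.

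**Figure D2:**
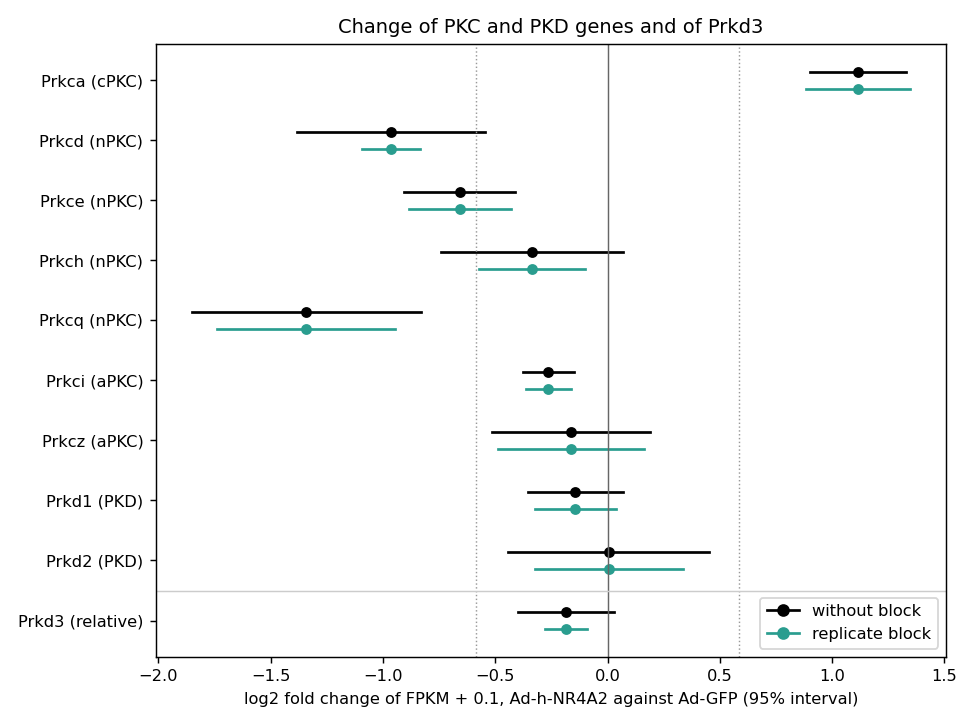
Log2 fold change of FPKM + 0.1, Ad-h-NR4A2 against Ad-GFP (horizontal axis), with its 95% interval from limma without a block (black) and with the replicate block (green), for the 9 members tested and, below the line, the related kinase gene Prkd3; dotted lines mark the 1.5-fold limit. Prkca is to the right at 1.12, Prkcd, Prkce, and Prkcq are to the left at -0.96, -0.66, and -1.34, and the interval of Prkcd narrows most with the block.

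Tested transcript by transcript, the 4 genes Prkca, Prkcd, Prkce, and Prkcq were called, where 14.7% of 11667 transcripts were, and neither Prkcb transcript was above 0 in all samples. Each of the 4 has 1 transcript, so this test used the same values again and is no separate support. Relatives of these kinases were read as a further comparison. Of the 5 tested, 0 were called. Prkd3, which encodes the remaining PKD, was 7.30 ± 0.869 and 6.42 ± 0.846 FPKM (SD, n = 6 each), with a log2 fold change of -0.18 (95% interval -0.40 to 0.03, limma, Benjamini-Hochberg adjusted p = 0.154). Its pairs all lay at ratios of 0.863 to 0.908, and the fit with the replicate block gave an adjusted p of 0.00435 (limma, Benjamini-Hochberg), short of the fold limit.

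The members covered a wide range of levels per length, and their order was not the same in the 2 groups. In both, 5 members (Prkca, Prkcd, Prkce, Prkci, and Prkd1) had a mean of at least 1 FPKM and the other 5 had a mean below 1. In Ad-GFP samples the order was Prkcd, Prkci, Prkce, Prkca, Prkd1, Prkch, Prkd2, Prkcq, Prkcz, and Prkcb. Prkcd stood above Prkci with no overlap, whereas the ranges of Prkci and Prkce overlapped, as did those of Prkce and Prkca, although Prkce was above Prkca in 6 of 6 samples. Below Prkd1, which was clear of both neighbors, the ranges of Prkch, Prkd2, and Prkcq overlapped. In Ad-h-NR4A2 samples the order was Prkca, Prkcd, Prkci, Prkce, Prkd1, Prkch, Prkd2, Prkcb, Prkcq, and Prkcz. There Prkca was above Prkcd in 5 of 6 samples with overlapping ranges, and Prkce and Prkd1, as well as all neighbors from Prkch down, also overlapped.

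The ratio of Prkca to Prkcd in the same sample, on the FPKM scale, was 0.209 to 0.383 in Ad-GFP samples and 0.806 to 1.74 in Ad-h-NR4A2 samples. Prkca thus exceeded Prkcd in 0 of 6 control samples and in 5 of 6 Ad-h-NR4A2 samples, the exception being number 25, in which Prkcd was highest. The ratio of Prkca to Prkce was 0.829 to 0.980 in Ad-GFP samples and 2.79 to 3.56 in Ad-h-NR4A2 samples. These ratios restate the changes of the single genes and were not tested.

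**Figure D3:**
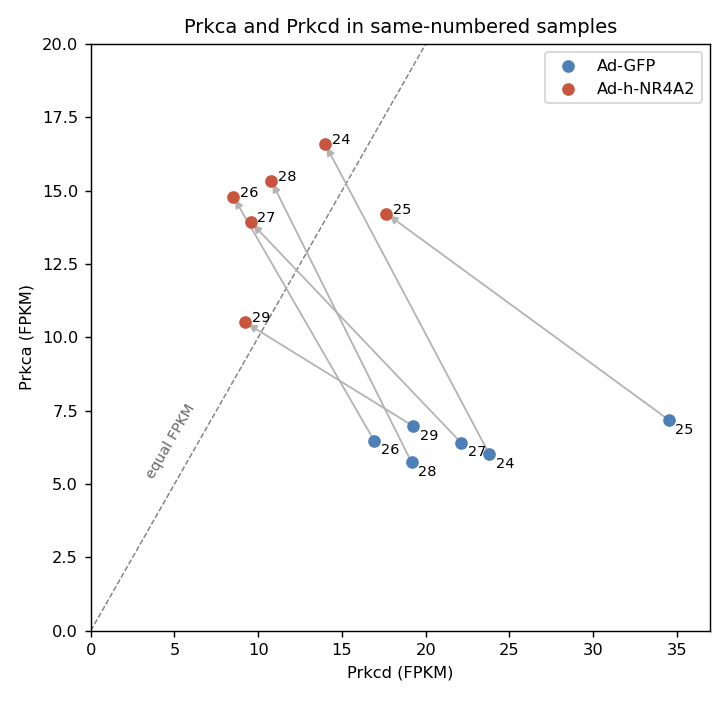
FPKM of Prkca (vertical axis) against FPKM of Prkcd (horizontal axis) in 6 Ad-GFP samples (blue) and 6 Ad-h-NR4A2 samples (red), labeled by number, with arrows from control to Ad-h-NR4A2 within each pair; the dashed line marks equal FPKM. All arrows point up and to the left, and 5 of 6 red points but 0 of 6 blue points lie above the line.

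As a sum of FPKM, the 10 genes together came to 50.1 ± 7.03 in the control and 42.1 ± 5.18 with Ad-h-NR4A2 (SD, n = 6 each), with ranges of 44.2 to 63.7 and 35 to 48.5 that overlapped. Within same-numbered pairs, the Ad-h-NR4A2 sum was always the lower. The makeup of the sum differed more than its size. Prkca took 13.0% ± 1.33 of it in Ad-GFP samples and 33.8% ± 3.08 in Ad-h-NR4A2 samples (SD, n = 6 each), and Prkcd took 44.6% ± 5.81 and 27.2% ± 5.47. Prkce went from 14.8% to 11.1%, while Prkci was at 15.3% and 15.1% and Prkd1 at 9.0% and 9.58%. By class, cPKC held 13.1% of the sum in control samples and 34.4% in Ad-h-NR4A2 samples, and nPKC held 61.6% and 39.8%. The shares were 15.5% and 15.2% for aPKC and 9.89% and 10.7% for PKD, each a difference below the SD between samples. The PKD share does not hold Prkd3, which is not among the 10 genes. Shares of a fixed total move together by construction, and no test was made of them.

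**Figure D4:**
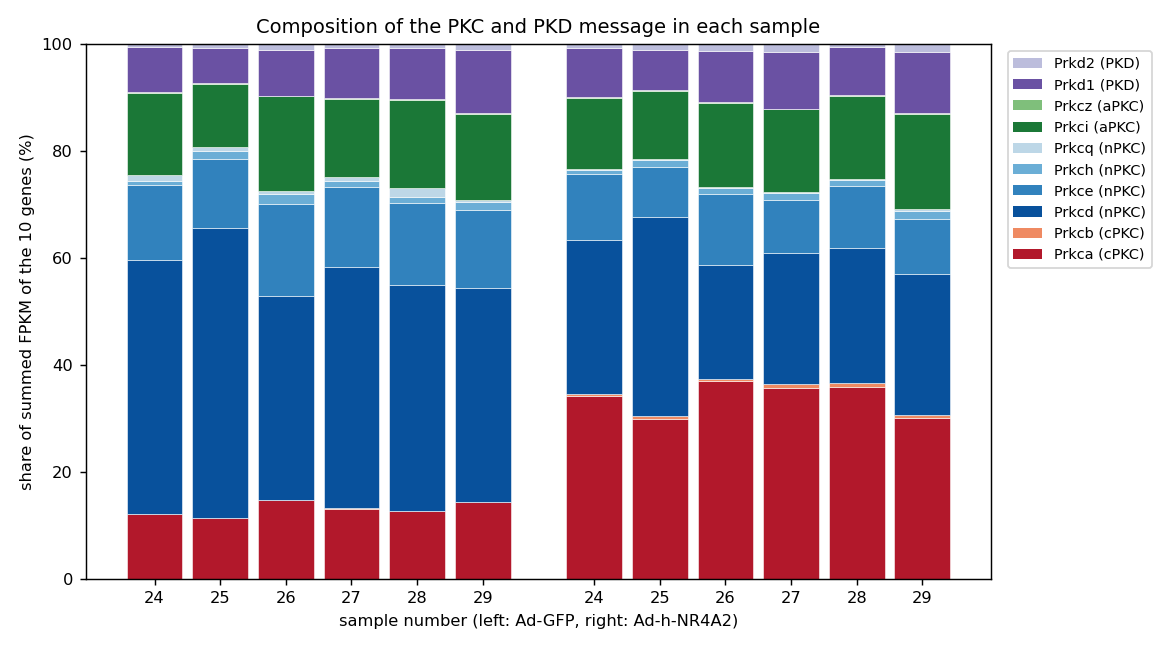
Share of the summed FPKM of the 10 genes (vertical axis, %) taken by each gene in each sample, with Ad-GFP samples 24 to 29 to the left and Ad-h-NR4A2 samples 24 to 29 to the right; reds are cPKC, blues nPKC, greens aPKC, and purples PKD. Prkca takes 11.3% to 14.7% in the control samples and 30.0% to 37.0% in the Ad-h-NR4A2 samples, and Prkcd takes 38.3% to 54.2% and 21.3% to 37.2%.

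Genes upstream and downstream of these kinases were read from 10 lists, in which 149 of 164 genes listed in the files could be tested. Of these, 41 (27.5%) were called, 21 higher and 20 lower, with a median log2 fold change of -0.09, against 15.2% and -0.02 over all genes tested. Because the lists were chosen with earlier results of these data known, the difference between these shares is no independent result. Up to 4 genes of each list are named, those with the greatest change among called genes with a mean of at least 1 FPKM, and their adjusted p was at most 0.0134 (limma, Benjamini-Hochberg). Of these 23 genes, 21 had the same call under every setting tried.

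Among the Gq-coupled receptors and Gq subunits, 3 of 14 tested rose and 5 fell (median log2 fold change -0.13). All α1-adrenoceptor genes were among those that fell. Adra1a went from 17.4 ± 1.81 to 6.53 ± 1.25 FPKM (log2 fold change -1.41), Adra1b from 27.9 ± 4.19 to 13.8 ± 0.918 FPKM (-1.0), and Adra1d from 12.1 ± 2.53 to 4.71 ± 1.85 FPKM (-1.42; SD, n = 6 each). Htr2a, the serotonin 2A receptor, fell from 2.86 ± 0.430 to 0.755 ± 0.200 FPKM (log2 fold change -1.81).

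The list of phospholipases that make diacylglycerol also holds Pld1 and Pld2, phospholipase D genes whose product is not diacylglycerol itself. Of the 12 genes of this list tested, 3 rose and 1 fell (median log2 fold change -0.10), and with the replicate block 2 fell. Plcb1, a phospholipase C isozyme driven by Gq, rose from 0.978 ± 0.303 to 3.16 ± 0.454 FPKM (log2 fold change 1.64), and its close relative Plcb4 from 23.6 ± 2.50 to 42.0 ± 6.25 FPKM (0.82; SD, n = 6 each). Plcd3 fell from 9.52 ± 1.70 to 5.87 ± 0.392 FPKM (-0.67).

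Genes for diacylglycerol removal and turnover were called in 9 of 20, with 6 higher and 3 lower (median log2 fold change 0.06). Ppap2b and Ppap2c, which encode lipid phosphate phosphatases, rose from 58.9 ± 14.1 to 128 ± 15 FPKM (log2 fold change 1.14) and from 3.53 ± 0.824 to 9.02 ± 2.43 FPKM (1.30; SD, n = 6 each). Lpin1, a phosphatidate phosphatase that makes diacylglycerol for lipid synthesis, rose from 37.8 ± 3.58 to 65.7 ± 8.94 FPKM (0.79). Dgkb, a diacylglycerol kinase, fell from 7.39 ± 2.31 to 3.77 ± 0.787 FPKM (-0.91). The list holds enzymes that consume diacylglycerol and enzymes that form it. Of the other diacylglycerol receptors with C1 domains, 2 of 10 rose and 0 fell (median -0.01), and Rasgrp2, an exchange factor for Rap, rose from 0.806 ± 0.190 to 1.54 ± 0.513 FPKM (log2 fold change 0.82).

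Of 15 priming kinases, phosphatases, and chaperones of PKC, 1 rose and 0 fell (median log2 fold change -0.03), and by the adjusted p alone 2 rose and 2 fell. It was Mapkap1, a subunit of mTOR complex 2, which primes cPKC and nPKC, and it went from 38.4 ± 4.14 to 60.9 ± 5.87 FPKM (0.66; SD, n = 6 each). Of 17 anchors and scaffolds, 1 rose and 0 fell (median 0.11), with the replicate block 2 rose, and by the adjusted p alone 5 rose and 4 fell. The gene called in the fit without the block was Prkcdbp, the cavin that binds PKC-δ, which rose from 126 ± 10.4 to 211 ± 27.7 FPKM (log2 fold change 0.73) in the samples in which Prkcd fell. Of 13 partners of aPKC, 0 rose and 2 fell (median -0.04). Wwc2 fell from 8.26 ± 0.773 to 5.25 ± 0.519 FPKM (-0.65) and Pard3b, a Par3 relative, from 12.7 ± 0.866 to 8.21 ± 1.33 FPKM (-0.63), the latter short of the fold limit without Ad-h-NR4A2 27.

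Among the substrates and effectors of PKC, 4 of 29 rose and 6 fell (median log2 fold change -0.24), and with the replicate block 7 fell. Marcks, the classic PKC substrate at the membrane, rose from 2.95 ± 0.900 to 7.76 ± 3.74 FPKM (1.28; SD, n = 6 each). Kcnj11, the pore of the ATP-sensitive potassium channel, fell from 23.8 ± 1.77 to 10.9 ± 1.65 FPKM (-1.14), and Hspb1, a small heat shock protein, from 1117 ± 296 to 653 ± 241 FPKM (-0.81). Gja1, the gap junction protein connexin 43, fell from 374 ± 52.1 to 204 ± 44.9 FPKM (-0.89), with Ad-h-NR4A2 24 at 293 FPKM and the other 5 at 174 to 205.

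Among the substrates and effectors of PKD, 1 of 14 rose and 3 fell (median log2 fold change -0.27). Rcan1, a calcineurin regulator and itself an NFAT target, fell from 462 ± 107 to 113 ± 26 FPKM (-2.03; SD, n = 6 each). Hdac5, the class II histone deacetylase that PKD exports from the nucleus, fell from 37.7 ± 2.88 to 24.5 ± 2.91 FPKM (-0.62), short of the fold limit without Ad-h-NR4A2 25. Myl4, the atrial essential myosin light chain, fell from 10.8 ± 1.39 to 7.01 ± 0.749 FPKM (-0.62). Rcan1 and Myl4 stand in this list as downstream effectors and not as direct substrates.

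**Figure D5:**
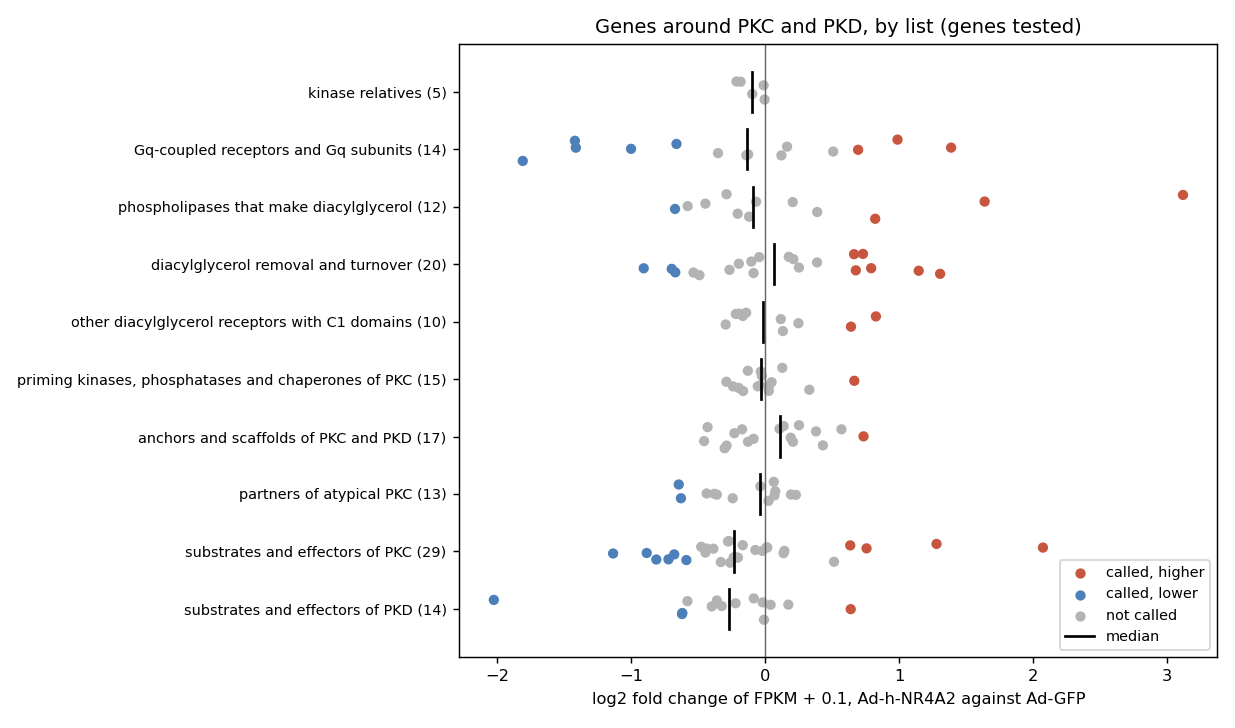
Log2 fold change of FPKM + 0.1, Ad-h-NR4A2 against Ad-GFP (horizontal axis), of each gene tested in the 10 lists (rows, number tested in parentheses), with red points called higher, blue points called lower, gray points not called, and black bars for the list median. Called genes are most frequent among Gq-coupled receptors and Gq subunits (8 of 14) and diacylglycerol turnover (9 of 20), and list medians lie between -0.27 and 0.11.

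For the most abundant member of each subfamily, the 3 genes with the nearest profile over the 12 samples were found among 8999 genes with a mean of at least 1 FPKM. Likeness is the root-mean-square distance of log2(FPKM + 0.1) after centering each gene on its own mean, and it is a description without a test. Nearest to Prkca were Tinagl1 (0.132), Bend7 (0.155), and Gmds (0.156), and Ad-h-NR4A2 29 was low in Tinagl1 at 7.76 FPKM against 10.8 to 12.3 in the other Ad-h-NR4A2 samples. Nearest to Prkcd were Kcna2 (0.248), Efhd1 (0.251), and Npr3 (0.285), with Ad-h-NR4A2 24 high in Kcna2 and Ad-GFP 24 high in Npr3. Nearest to Prkci were Rhoa (0.0375), Arih1 (0.0387), and Nmt1 (0.0405). Nearest to Prkd1 were Vopp1 (0.0847), Pdlim3 (0.0962), and Ago3 (0.0977), and Ad-GFP 29, the highest sample of Prkd1, was also far above the other control samples in Vopp1 and Ago3. For scale, the root-mean-square size of the centered profile of the member was 0.581 for Prkca, 0.595 for Prkcd, 0.139 for Prkci, and 0.165 for Prkd1.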

How the data were processed

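RNA was sequenced from 12 ARVM samples (6 Ad-GFP, 6 Ad-h-NR4A2) at 48 h after transduction. The authors prepared stranded mRNA libraries, sequenced them in 1 pooled run, aligned paired-end reads with STAR to the Rn5 assembly, and quantified RefSeq transcripts in Cufflinks as FPKM. The FPKM values deposited by the authors were used without rescaling. Of all values, 8 have a failed status, and 0 were left out for it. An FPKM of 0 can also be a failed estimate.

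Groups were taken from the sample labels. A gene with several transcripts was taken at the one of greatest mean FPKM. The 10950 genes with a value above 0 in every sample entered a limma fit (version 3.58.1, R 4.3.3, moderated with trend) of log2(FPKM + 0.1), two-sided, without a block, and with Benjamini-Hochberg adjustment over all of them. A gene was called at an adjusted p below 0.05 with a ratio of mean FPKM of at least 1.5, the limits of the study. For single genes, an exact permutation test (two-sided) was run over 924 ways to divide 12 samples into 6 and 6. Python 3.11.15 with SciPy 1.17.1, NumPy 2.4.6, and pandas 2.3.3 gave the other values, and Matplotlib 3.10.9 the plots. The fit was tested on simulated data.

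The labels do not say what numbers 24 to 29 stand for, and the study describes independent experiments with cells of different rats. Deviations from the group means of same-numbered samples correlated at 0.35 to 0.62 in all 6 pairs, above the limit of 0.1. Those of differently numbered samples correlated at -0.385 to 0.189, so that some of them also passed that limit. The numbers were taken as pairs in descriptions and in the replicate block only. If they stand for less than separate rats, the p-values measure the spread between these samples only.

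Depth was derived from FPKM steps of transcripts of at least 800 nucleotides, in which 99.4% to 99.9% of values of up to 6 fragments came out whole within 0.05. Depth and intervals cover counting error only. FPKM are not counts, and no count test was run.

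The 10 members, the lists of pathway genes and markers, and the tests were chosen with earlier results of these data known. Named are all members, Nr4a2, up to 4 called genes of each list with the greatest log2 fold change at a mean of at least 1 FPKM, the 3 genes nearest in profile to the most abundant member of each subfamily, and the marker lists; single markers were named after their values were seen. Alternatives were pseudocounts of 1 and 0.01, no filter, a minimum mean FPKM of 1, quantile normalization, the TPM scale, the replicate block, no trend in limma, transcripts summed, and each sample left out; the adjusted p alone and the unfiltered Prkcb fit were added after seeing the data. Upstream sequences are those of RefSeq on GRCr8, and transcript positions are on Rn5 as deposited. Some single genes of the lists are not reported here by themselves.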

Additional observations from a re-analysis of the deposited data

Results flagged for a closer look

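In 92 groups of 6 values, from the 46 genes named or listed above, the highest or lowest sample was compared with the rest by Dixon's ratio of the gap to the range, against its 95% critical value. Chance alone would mark about 1 group in 20, and 6 were marked, none of them of a PKC or PKD gene. Ad-h-NR4A2 24 was high in Gja1 (293 FPKM, the others 174 to 205) and in Kcna2 (4.50 FPKM, the others 2.40 to 3.16). Ad-h-NR4A2 29 was low in Tinagl1 (7.76 FPKM, the others 10.8 to 12.3). Ad-GFP 24 was high in Npr3 (4.20 FPKM, the others 2.20 to 2.89). Ad-GFP 29 was high in Vopp1 (92.0 FPKM, the others 61.9 to 66.7) and in Ago3 (4.28 FPKM, the others 3.09 to 3.46), both chosen for their likeness to Prkd1, whose highest value was in the same sample. No cause was tested.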

How the results depend on the processing

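The count of 4 members called was 4 on the TPM scale, after quantile normalization, with pseudocounts of 1 and 0.01, without trend, with summed transcripts, and with the replicate block, 3 at a mean FPKM of at least 1, where Prkcq was not tested, 5 without the filter (Prkcb added; 13.6% of 14040 genes called), and 5 with the adjusted p alone. It was 3 to 4 when each sample was left out, 3 without Ad-h-NR4A2 29. The 4 genes called have 1 transcript each, so summing transcripts left their values as they were. Over all genes, 1662 were called, 1541 to 1769 with a sample left out, and 4484 with the adjusted p alone; of the pathway genes 41 were called, and 76 with the adjusted p alone. The replicate block gave 1825 genes, 44 pathway genes, and 4 members, and beyond the results named with it above it changed no call of a member or of a pathway gene named here; marker calls were not compared with it. The sign of Prkd2 reversed on the TPM scale (-0.013), after quantile normalization (-0.052), and with a pseudocount of 0.01 (-0.0035), and ran from -0.084 to 0.17 with a sample left out; the cause was not tested. No other member tested changed sign. Prkcq ranged from -1.94 to -0.37 on the log2 scale, with the lowest and highest values at pseudocounts of 0.01 and 1. Depth limits Prkcz and Prkcb, with at most 6 and 2 fragments in a control sample.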

Other observations

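Some genes of the same pathway lists passed the test but were too low, or ranked too far down their list, to be named above, and those given here were chosen after their values were seen. Plch1, a phospholipase C isozyme, went from 0.0628 ± 0.0340 to 1.52 ± 1.03 FPKM (log2 fold change of FPKM + 0.1 3.12), and Plek, the platelet PKC substrate pleckstrin, from 0.0832 ± 0.0795 to 0.645 ± 0.246 FPKM (2.07). F2rl1, a protease-activated receptor, went from 0.0745 ± 0.0312 to 0.355 ± 0.0735 FPKM (1.39), all SD with n = 6. All 3 were scarce in control samples. Other scarce genes of the lists, such as Dgkg, Dgki, and Unc13d, were not called.

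Ednra, the endothelin A receptor, rose from 10.3 ± 1.25 to 20.6 ± 3.19 FPKM (0.99), whereas the α1-adrenoceptor genes fell. Of other genes on the list of PKC substrates, Pln fell from 1428 ± 228 to 873 ± 200 FPKM (-0.72), Cacna1c from 18.1 ± 1.14 to 11.3 ± 1.48 FPKM (-0.68), and Mybpc3 from 1002 ± 55.8 to 667 ± 51.8 FPKM (-0.59). Tnni3, Tnnt2, and Myl2 on that list were not called, at ratios of 0.857, 0.834, and 0.868, all short of the fold limit. Tnnt2 and Myl2 passed the limit on the adjusted p (0.00477 and 0.0268, limma, Benjamini-Hochberg), and Tnni3 did not (0.119).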
